A study of Mus musculus with 6 samples.

Results

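The genes described here are 10 genes of the integrated stress response, Atf4, Ddit3, Ddit4, Trib3, Asns, Chac1, Psat1, Phgdh, Sesn2 and Ppp1r15a, taken from the deposited gene table by exact match of the symbol. They correspond to 11 of the 60832 rows of the table, because Ddit3 is listed under 2 Ensembl identifiers. The cells were labelled as primary LSECs, the endothelial cells that line liver sinusoids. Beads coated with anti-CD146 were used to isolate them from mice carrying liver metastases of HCT116 cells (an established line from a human colorectal carcinoma), and the labels state a culture of 24 h. There were 3 libraries from bevacizumab-sensitive xenografts, called S1 to S3 here by their replicate numbers, and 3 from bevacizumab-resistant xenografts, called R1 to R3. Bevacizumab is an antibody to VEGF-A, and the resistant state was obtained by prolonged dosing of mice bearing this initially sensitive tumor, while the vehicle arm of the study received IgG. The hosts were young male BALB/c nude mice, which lack mature T cells, and the same tumor line was used in both groups. The labels do not say whether each library came from a separate mouse, so the tests measure the spread between these libraries, which may be technical.

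The integrated stress response is the pathway by which cells answer amino acid shortage, unfolded protein, heme shortage or viral RNA. A set of kinases phosphorylates the alpha subunit of the initiation factor eIF2, most translation slows, and the mRNA of the transcription factor ATF4 is translated more. ATF4, often with partners of the C/EBP family, then raises genes for amino acid uptake and synthesis, for the second factor CHOP (encoded by Ddit3) and for regulators that limit the response. Because ATF4 is controlled largely at translation, the level of Atf4 mRNA is not a measure of the activity of the protein.

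Total counts on genes ranged from 17599326 to 20726684 per library, so that 3 counts corresponded to between 0.145 and 0.170 CPM (counts scaled to 1000000 per library), a floor for counting error only. The label of the cells was checked against lists of marker genes. The 14 macrophage and Kupffer cell markers summed to between 23967 and 36682 CPM in the 6 libraries, the 14 LSEC markers to between 973 and 2410 CPM and the 12 pan-endothelial markers to between 80.8 and 519 CPM. The highest LSEC markers in every library were Mrc1 (335 to 1192 CPM) and Stab1 (463 to 774 CPM). No marker of these 3 lists was at 0 in any library. The 10 neutrophil markers summed to between 185 and 5567 CPM. In S1 and S2 this sum was above that of the LSEC markers (3496 against 1533 CPM and 5567 against 973 CPM). In the other libraries it was below. The remaining lists summed to 160 to 255 CPM for cycling cells and 88.7 to 363 CPM for stellate cells and fibroblasts. Hepatocyte markers summed to 33.9 to 203 CPM and those of T and B cells to 10.2 to 23.7 CPM. Mcam, which encodes CD146, stood at 0.303 to 3.84 CPM. The values below are therefore those of libraries labelled as LSECs in which macrophage markers were far above endothelial ones, and fewer cells of a type and less RNA per cell cannot be told apart in them. S2 stood apart: its log2 CPM departed from the mean of the other 5 libraries by a median of 0.78 in absolute value over the 15474 genes tested, against 0.24 to 0.33 for each of the other libraries. By summed exon length, the 20% shortest genes (median 1016 bases) were higher in S2, by a median of 0.64 on the log2 scale. The 20% longest genes (median 9308 bases) were lower in S2, by a median of -0.63. For each of the 10 genes the fold change is given with and without S2, as it is where a fold change of another gene is given. The part of exon length in these results was not tested.

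The promoters of 5 genes are shown. Of these, 2 (Asns and Chac1) hold the core of the composite C/EBP and ATF site through which ATF4 is known to act. The promoter of Ppp1r15a holds a full cAMP response element, and those of Ddit3 and Trib3 hold neither as exact letters. Each window covers the 250 bases before the start site that RefSeq gives, in GRCm38.p6, 5′ to 3′ on the strand of the gene, with the matched letters in capitals.

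Asns (chr6:7693210-7693459, minus strand): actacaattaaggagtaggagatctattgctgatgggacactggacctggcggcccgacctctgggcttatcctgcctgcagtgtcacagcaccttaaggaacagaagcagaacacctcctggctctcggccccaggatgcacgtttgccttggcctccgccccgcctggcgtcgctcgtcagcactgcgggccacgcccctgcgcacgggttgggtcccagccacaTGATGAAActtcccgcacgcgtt
Chac1 (chr2:119350992-119351241, plus strand): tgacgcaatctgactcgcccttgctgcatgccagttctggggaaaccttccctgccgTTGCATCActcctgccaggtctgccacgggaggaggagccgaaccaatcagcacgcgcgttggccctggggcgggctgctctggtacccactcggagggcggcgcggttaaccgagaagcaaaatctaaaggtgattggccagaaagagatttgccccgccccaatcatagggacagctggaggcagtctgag
Ppp1r15a (chr7:45526269-45526518, minus strand): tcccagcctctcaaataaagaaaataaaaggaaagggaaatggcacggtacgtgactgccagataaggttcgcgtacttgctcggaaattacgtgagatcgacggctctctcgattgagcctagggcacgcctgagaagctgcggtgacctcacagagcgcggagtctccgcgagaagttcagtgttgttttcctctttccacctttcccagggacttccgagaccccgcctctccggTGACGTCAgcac
Ddit3 (chr10:127290543-127290792, plus strand): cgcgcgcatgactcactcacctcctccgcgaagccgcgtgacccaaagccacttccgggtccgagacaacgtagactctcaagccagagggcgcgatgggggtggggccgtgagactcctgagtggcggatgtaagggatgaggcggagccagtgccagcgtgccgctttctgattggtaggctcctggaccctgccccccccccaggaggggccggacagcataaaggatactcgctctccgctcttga
Trib3 (chr2:152344061-152344310, minus strand): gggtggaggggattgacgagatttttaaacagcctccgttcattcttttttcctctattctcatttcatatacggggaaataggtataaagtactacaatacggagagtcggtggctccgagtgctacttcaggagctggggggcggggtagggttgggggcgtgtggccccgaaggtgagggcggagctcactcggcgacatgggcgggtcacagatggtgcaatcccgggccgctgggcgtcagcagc

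The composite site was searched as TGATGNAA on both strands, and the match in Asns began 23 bases before the start site and that in Chac1, on the reverse strand, 193 bases before it. Of all 32851 promoter windows of this length, 3.45% held such a match, and of the 11 windows of the 10 genes, 2 did. The cAMP response element was searched as TGACGTCA, which reads the same on both strands, and no match of the 2 motifs overlapped in these windows. It was in the window of Ppp1r15a, from 12 bases before the start site, and in 1.55% of all windows. The endoplasmic reticulum stress element (CCAAT and CCACG, 9 bases apart, on either strand) was in none of the 11 windows and in 0.113% of all. A match describes letters in this window and is no proof of binding. Likewise, a missing match does not show that a gene lacks the element. Only exact letters were searched, so near matches were not counted, and sequence outside the windows was not searched. In the window of Ddit3, for example, ATTGG follows CGTGC, not the CGTGG of the reversed stress element, at the same spacing.

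All 10 symbols passed the filter on low counts with one identifier each. The other Ddit3 identifier, ENSMUSG00000116429, had 0 counts in all 6 libraries and was not tested. Its 105 exon bases all lie within exons of the tested identifier on the same strand, so the 0 does not show absence of expression. On the scale of length-normalized level, FPKM, the genes were abundant. Atf4 (ENSMUSG00000042406, chromosome 15, 80255184 to 80257541 in GRCm38) had a median FPKM of 243.6, and 0.963% of the genes tested had a higher one. Next came Ddit4 at 176 FPKM, followed by Asns at 46.7, Ddit3 at 42.0, Sesn2 at 36.6, Trib3 at 33.6 and Ppp1r15a at 31.9. The lowest were Phgdh at 16.3, Psat1 at 16.2 and Chac1 at 15.4, against 4.19 for the median gene tested. This order was not fixed: in S3 Ddit4 stood at 281 FPKM and Atf4 at 188, in S2 Ddit3 stood at 112 and Ddit4 at 103, Ddit3 was above Asns in S2 and below it in S1, and Sesn2, Trib3 and Ppp1r15a exchanged places, as did the lowest 3. Apart from Ddit4 and Asns, whose ranges over the libraries did not meet (103 to 281 and 29.95 to 59.2 FPKM), neighbours in the order overlapped.

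No gene of the 10 passed the test between resistant and sensitive libraries. With edgeR's quasi-likelihood test over 15474 genes, 0 of the 10 stood under 0.05 after Benjamini-Hochberg adjustment, where 0% of all genes did, and their adjusted p-values ran from 0.940 to 0.995. Without adjustment the count was also 0 of 10, against 3.08% of all genes (0.536% higher and 2.54% lower in the resistant group), and DESeq2's Wald test called 0 of the 10 at either level, against 0.155% of all genes with adjustment and 4.73% without. The libraries of the groups overlapped for 10 of 10 genes, while they did not overlap for 8.39% of all genes tested. The median log2 fold change (resistant over sensitive) of the 10 genes was -0.09, against 0.01 for all genes, and 8 of the 10 were below 0, where 49.2% of all genes were. That count was 6 with library totals alone as the scaling and 4 without S2.

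**Figure D1:**
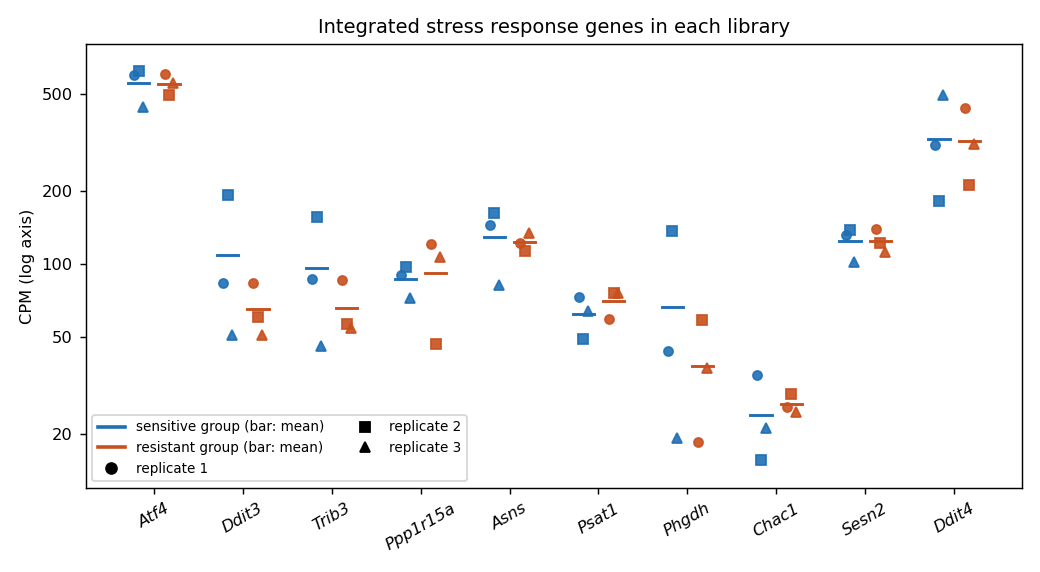
CPM of the 10 genes (log axis) in each library, with the sensitive group in blue, the resistant group in orange, a marker shape for each replicate number and a bar at the group mean. The groups overlap for all 10 genes, and the largest spread is within the sensitive group for Phgdh, from 19.2 to 136 CPM.

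Among the transcription factors, Atf4 had 597, 622 and 443 CPM in S1, S2 and S3 and 599.9, 494 and 552 CPM in R1, R2 and R3. Its level was thus nearly even, with the highest library 1.40 times the lowest. Its log2 fold change was -0.09 (95% interval from -0.65 to 0.46; edgeR quasi-likelihood adjusted p = 0.951), and it was 0.08 without S2. This interval spans a fall to 0.638 times and a rise to 1.38 times the level of the sensitive group.

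Ddit3 (ENSMUSG00000025408, chromosome 10, 127290774 to 127296288) encodes CHOP, the factor that ATF4 induces under prolonged stress and that promotes cell death. It had 83.2, 192 and 51.0 CPM in S1, S2 and S3 and 83.6, 60.5 and 51.1 CPM in R1, R2 and R3. One library of the sensitive group was far above the other 5, and the other libraries of that group lay at the edges of the resistant range. The group means were 109 ± 73.9 and 65.1 ± 16.7 CPM (SD, n = 3 each). For the groups this gave a log2 fold change of -0.87 (standard error 0.53, 95% interval from -2.12 to 0.37; edgeR quasi-likelihood adjusted p = 0.940). Leaving S2 out gave -0.04. Exons of Ddit3 overlap those of Mars on the opposite strand, and the strand setting of the counting was not stated, so reads in the overlap cannot be assigned between them.

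Trib3 (ENSMUSG00000032715, chromosome 2, 152337422 to 152344032) encodes a pseudokinase that CHOP and ATF4 induce and that restrains ATF4 in turn. It had 86.8, 156 and 46.2 CPM in S1, S2 and S3 and 86.1, 56.5 and 54.7 CPM in R1, R2 and R3. S2 was again the highest library, as for Ddit3, and S3 the lowest. For Ddit3, S3 and R3 stood together at the low end, and R3 was the lower of them with TMM scaling. Between groups the log2 fold change was -0.67 (standard error 0.48, 95% interval from -1.79 to 0.45; edgeR quasi-likelihood adjusted p = 0.940), and it was -0.01 without S2. The ratio of Ddit3 to Trib3 in FPKM was highest in S2, at 1.53, and lay at or under 1.37 in the other libraries, while the highest library exceeded the lowest by 3.77 times for Ddit3 and 3.38 times for Trib3.

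For both genes the estimate turned on the sensitive group. Without S3, the log2 fold change was -1.22 for Ddit3 and -1.01 for Trib3, with unadjusted p-values of 0.0305 and 0.0333 and an adjusted p-value of 0.659 for both in edgeR's quasi-likelihood test. In that fit 6.53% of all 16169 genes tested went under 0.05 without adjustment and 0% with it. In the 15 alternative fits, no other gene of the 10 went under 0.05 without adjustment.

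The summed level of 10 neutrophil markers also varied between the libraries. It was 3496, 5567 and 253 CPM in S1, S2 and S3 and 1244, 711 and 185 CPM in R1, R2 and R3. The 3 libraries with the highest sums (S1, S2 and R1) were also the 3 highest for Ddit3 and for Trib3, and likewise for Atf4 and Sesn2. They were not the 3 highest for Asns, Phgdh, Ppp1r15a, Chac1, Psat1 or Ddit4. How many of all genes tested had the same 3 libraries on top was not counted. S1 and R1 were nearly equal for Ddit3 and for Trib3, although their marker sums were 3496 and 1244 CPM. All 10 of these markers had counts in every library, and S100a9, an abundant calprotectin subunit, ranged from 37.6 to 2324 CPM. The part of neutrophil RNA in the levels of Ddit3 and Trib3 was not tested.

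**Figure D2:**
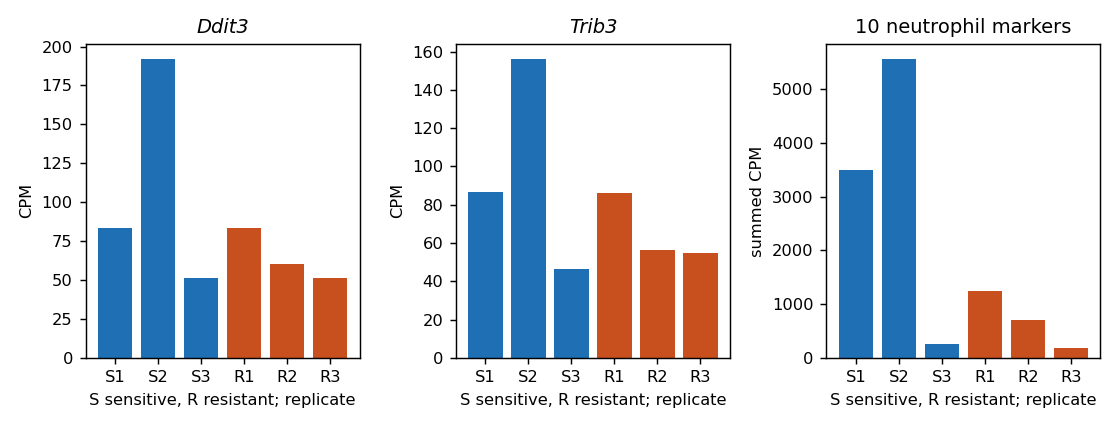
Bars give the CPM of Ddit3, the CPM of Trib3 and the summed CPM of 10 neutrophil markers in each library (S1 to S3 sensitive group in blue, R1 to R3 resistant group in orange). S2 is the highest bar in each panel, at 192, 156 and 5567 CPM, and S1 and R1 are the next highest in each.

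Ppp1r15a (ENSMUSG00000040435, chromosome 7, 45522916 to 45526268) encodes GADD34, the stress-induced subunit that brings protein phosphatase 1 to eIF2 and so ends the response. It had 90.2, 97.2 and 72.5 CPM in S1, S2 and S3 and 121, 46.8 and 107 CPM in R1, R2 and R3. The resistant libraries enclosed the whole sensitive range, with R2 the lowest of all. The log2 fold change was -0.01 (95% interval from -0.85 to 0.83; edgeR quasi-likelihood adjusted p = 0.995), turned to 0.08 with library totals alone and was 0.16 without S2 and 0.30 without R2. Of its 2937 exon bases, 12 overlap those of Tulp2 on the opposite strand, so the strand limit named for Ddit3 applies to reads there. Tulp2 had 8 to 19 counts per library. Its constitutive counterpart Ppp1r15b had 27.3 to 52.5 FPKM, and the ratio of Ppp1r15a to Ppp1r15b ranged from 0.395 in R2 to 1.21 in S2.

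The genes of amino acid synthesis differed in how much they varied. Asns (ENSMUSG00000029752, chromosome 6, 7675169 to 7693254), the asparagine synthetase, had 144, 162 and 81.9 CPM in S1, S2 and S3 and 122, 112 and 134 CPM in R1, R2 and R3. The resistant libraries lay inside the sensitive range. For Asns the log2 fold change was -0.16 (95% interval from -0.88 to 0.56), and it was 0.13 without S2.

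Psat1 (ENSMUSG00000024640, chromosome 19, 15904678 to 15947337) and Phgdh (ENSMUSG00000053398, chromosome 3, 98313170 to 98339990) encode consecutive enzymes of serine synthesis. Psat1 had 73.1, 49.1 and 64.4 CPM in S1, S2 and S3 and 59.5, 76.2 and 75.7 CPM in R1, R2 and R3. It was among the steadier genes, with a log2 fold change of 0.13 (95% interval from -0.36 to 0.62), or 0.05 without S2. Phgdh had 43.7, 136 and 19.2 CPM in S1, S2 and S3 and 18.5, 58.8 and 37.3 CPM in R1, R2 and R3. The highest library was 7.36 times the lowest, and S2 and R2 were the highest libraries of their groups. The within-group SD of Phgdh was 1.25 on the log2 scale, larger than that of 90.7% of the genes tested. The log2 fold change of Phgdh was -0.92 (standard error 0.78, 95% interval from -2.77 to 0.92; edgeR quasi-likelihood adjusted p = 0.940), but 0.32 without S2. S2, the highest library for Phgdh, was the lowest for Psat1 in CPM, whereas with TMM scaling R1 was slightly lower than S2 for Psat1.

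Chac1 (ENSMUSG00000027313, chromosome 2, 119351229 to 119354381), an enzyme that degrades glutathione and is induced through ATF4 and CHOP, did not follow Ddit3. It had 35.1, 15.6 and 21.2 CPM in S1, S2 and S3 and 26.0, 29.1 and 24.6 CPM in R1, R2 and R3. S2, the highest library for Ddit3, was the lowest for Chac1. The log2 fold change of Chac1 was 0.11 (95% interval from -0.55 to 0.78), and it was -0.07 without that library.

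The remaining genes encode inhibitors of mTORC1, the kinase complex of growth and translation. Sesn2 (ENSMUSG00000028893, chromosome 4, 132492032 to 132510501), a leucine sensor, had 132, 138 and 102 CPM in S1, S2 and S3 and 139, 122 and 112 CPM in R1, R2 and R3. Its highest library was 1.36 times the lowest, the smallest such ratio of the 10, while its within-group SD of 0.23 on the log2 scale was above that of Psat1 at 0.21. For Sesn2 the log2 fold change was -0.07 (95% interval from -0.59 to 0.44), which turned to 0.0030 with library totals alone and to 0.09 without S2.

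Ddit4 (ENSMUSG00000020108, chromosome 10, 59949669 to 59951834), also called REDD1, responds to hypoxia and glucocorticoids as well as to ATF4. It had 306, 182 and 494 CPM in S1, S2 and S3 and 439, 211 and 312 CPM in R1, R2 and R3. S3 was its highest library and S2 its lowest, the reverse of Atf4 at these ends, while R1 and R2 held the same ranks for both genes. The log2 fold change was -0.09 (95% interval from -0.9995 to 0.82). It was -0.34 without S2 and 0.34 without S3, and it turned to 0.02 in limma on log2(FPKM + 1).

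**Figure D3:**
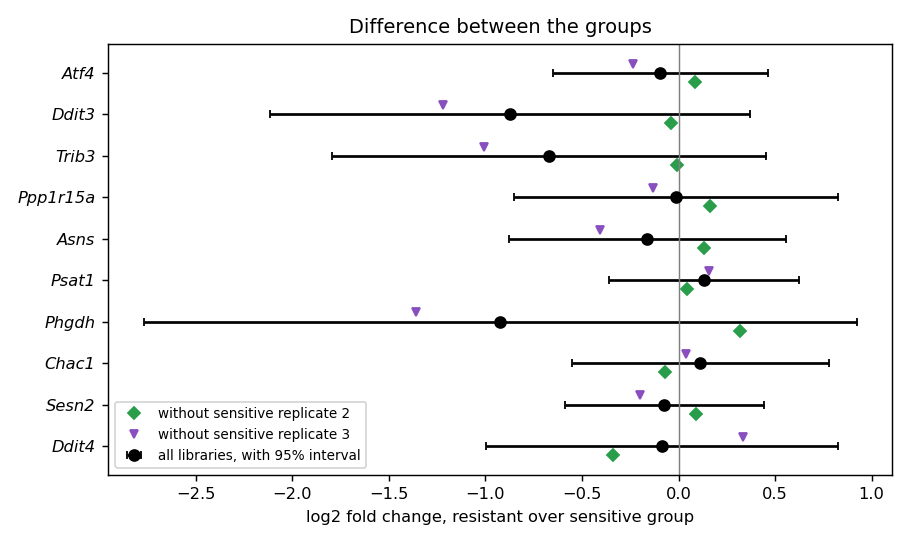
Log2 fold change of each gene (resistant over sensitive group) with its 95% interval from edgeR's quasi-likelihood test, and the values without S2 or without S3. All 10 intervals include 0, and the values for Ddit3, Trib3 and Phgdh move from -0.87, -0.67 and -0.92 to -0.04, -0.01 and 0.32 without S2.

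Among themselves, the 10 genes split in the library that stood apart. In CPM, S2 was the highest library for 5 genes (Atf4, Ddit3, Trib3, Asns and Phgdh) and the lowest for 3 (Ddit4, Chac1 and Psat1), and S3 was the lowest for 5 (Atf4, Ddit3, Trib3, Asns and Sesn2). Relative to the mean of the other 5 libraries, S2 was higher by 2.31 for Phgdh, 1.80 for Ddit3 and 1.51 for Trib3 on the log2 scale. For Ddit4, Chac1 and Psat1 the departures were -0.67, -0.55 and -0.27. The median absolute departure over the 10 genes was 0.61, against 0.78 over all genes. This median hides the split. Only 2.48%, 5.44% and 8.68% of the genes tested stood higher in S2, on this measure, than Phgdh, Ddit3 and Trib3. The 10 genes were also more abundant than the median gene tested, and the comparison was not matched for level. In S3 the median over the 10 genes was 0.53, against 0.33 over all genes. As a description over 6 libraries that share S2, log2 CPM correlated with the mean standardised log2 CPM of the other 9 genes by Pearson's r of 0.970 for Atf4, 0.953 for Asns and 0.896 for Trib3, and by -0.774 for Ddit4, -0.579 for Psat1 and -0.409 for Chac1. The within-group SD of the 10 genes had a median of 0.48 on the log2 scale, against 0.46 for all genes tested.

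**Figure D4:**
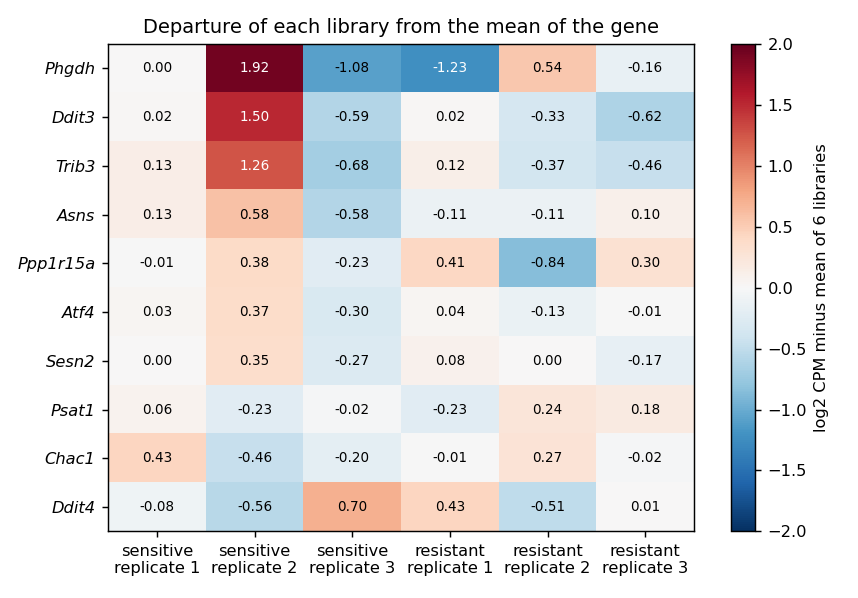
Log2 CPM of each gene in each library minus its mean over the 6 libraries, with red for higher and blue for lower. Phgdh and Trib3 stand at 1.92 and 1.26 in S2, in which Ddit4 stands at -0.56.

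Other genes of the pathway, in 10 lists holding 99 genes of which 96 were tested, gave no call either. By the quasi-likelihood test of edgeR, 0 of the 96 went under 0.05 with or without adjustment, against 0% and 3.08% of all genes, and DESeq2's Wald test called 0 of them without adjustment, against 4.73% of all genes. Sensitive and resistant libraries were separate for 4 of the 96 genes (Bbc3, Xpot, Hspa5 and Hyou1), against 8.39% of all genes. Without S2, the medians of the lists below were 0.09 for the kinases, -0.04 for the phosphatase subunits and 0.0049 for eIF2 and eIF2B. They were 0.10 for the bZIP partners and related factors, -0.12 for the transporters, 0.06 for the enzymes, and 0.16 for the unfolded protein response.

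The 4 eIF2alpha kinases had a median log2 fold change of 0.27, with 3 above 0. Eif2ak3, which encodes PERK, the kinase that senses unfolded protein in the endoplasmic reticulum, had 36.8, 6.02 and 40.3 CPM in S1, S2 and S3 and 38.6, 39.2 and 43.4 CPM in R1, R2 and R3. Apart from S2, its libraries were alike, and its log2 fold change was 0.53 (95% interval from -0.81 to 1.87), which was 0.07 without S2. Eif2ak4, the amino acid sensor GCN2, had a value of 0.35 (0.16 without S2) and Eif2ak2, the viral RNA sensor PKR, of -0.22 (-0.33 without S2). The highest FPKM of any kinase in any library was 13.8, for Eif2ak1, the heme-regulated kinase HRI.

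The 8 subunits of eIF2 and its exchange factor eIF2B had a median of -0.12, with 3 above 0 and 5 below. Eif2b2 and Eif2b4, regulatory subunits of the exchange factor, had log2 fold changes of -0.55 and -0.36, and Eif2b1 had 0.31. Without S2 these were -0.06, 0.30 and 0.04, since S2 was the highest library for Eif2b2 and Eif2b4 (95.3 and 66.2 CPM) and the lowest for Eif2b1 (14.9 CPM). Among the 4 phosphatase subunits the median was 0.14, with values of 0.19 for Ppp1cb, 0.17 for Ppp1cc and -0.12 for Ppp1ca, or -0.08, 0.02 and -0.02 without S2.

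Of the 8 bZIP partners and related factors, 4 were above 0 and 4 below, with a median of 0.0053. Atf3, a repressor that ATF4 induces, had 109 ± 25.7 CPM in the sensitive and 144 ± 23.4 CPM in the resistant group (SD, n = 3 each), and its log2 fold change was 0.36 (95% interval from -0.17 to 0.89). Nupr1, a stress-induced chromatin protein, had a log2 fold change of -0.66 (95% interval from -1.45 to 0.14). Atf5, a relative of ATF4 under the same kind of translational control, ranged from 81.6 to 350.3 CPM within the sensitive group, and its log2 fold change was -0.35 (95% interval from -1.77 to 1.07). Without S2 the values were 0.26 for Atf3, -0.24 for Nupr1 and 0.54 for Atf5.

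The 10 amino acid transporters tested had a median of -0.01, with 5 above 0 and 5 below. Slc38a2, a carrier of neutral amino acids, had 0.36, Slc7a5, the large neutral amino acid carrier, -0.32 and Slc7a6 0.21 as log2 fold changes, all with intervals that include 0, and without S2 they had 0.07, -0.24 and 0.15. For the 11 enzymes of amino acid and one-carbon metabolism the median was -0.03, and Pck2, Mthfd1l and Aldh18a1 had -0.40, -0.35 and 0.20, or 0.14, -0.16 and 0.06 without S2. S2 was the highest library for Pck2, at 183 CPM against 81.7 to 108 CPM in the others.

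The aminoacyl-tRNA synthetases, which charge tRNAs and are classic ATF4 targets, and the nuclear export receptor Xpot made up a list of 14 with a median of -0.18 and 11 below 0. Without S2 10 of the 14 were above 0 and the median was 0.06. Lars, Yars and Sars, the leucyl-, tyrosyl- and seryl-tRNA synthetases, had log2 fold changes of -0.64, -0.55 and -0.54, and that library was the highest for each, with 645 CPM for Sars against 219.7 to 301 CPM in the others. Without it the values were -0.05, -0.00070 and 0.21. Xpot had 127, 69.9 and 119 CPM in S1, S2 and S3 and 129.6, 133 and 148 CPM in R1, R2 and R3, without overlap, and a log2 fold change of 0.34, or 0.16 without S2.

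The 16 genes of the endoplasmic reticulum unfolded protein response, a list of chaperones and sensors partly outside ATF4 control, had a median of 0.20 with 14 above 0, where 49.2% of all genes tested were below 0. Their departure in S2 had a median of -0.45. The count above 0 lay between 12 and 15 in the alternative fits, and no gene of the list went under 0.05 without adjustment in any of them. Hspa5, the chaperone BiP, had 759.7, 740.0 and 827 CPM in S1, S2 and S3 and 952, 880.1 and 1099 CPM in R1, R2 and R3, without overlap, and its log2 fold change was 0.26 (95% interval from -0.23 to 0.76), or 0.30 without S2. Hyou1, a further chaperone, had 143, 101 and 152 CPM in S1, S2 and S3 and 174, 171 and 185 CPM in R1, R2 and R3, also without overlap, and a log2 fold change of 0.36 (95% interval from -0.09 to 0.81), or 0.26 without S2. Sel1l and Pdia4 had 0.40 and 0.37, with overlapping groups, or 0.20 and 0.11 without S2.

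**Figure D5:**
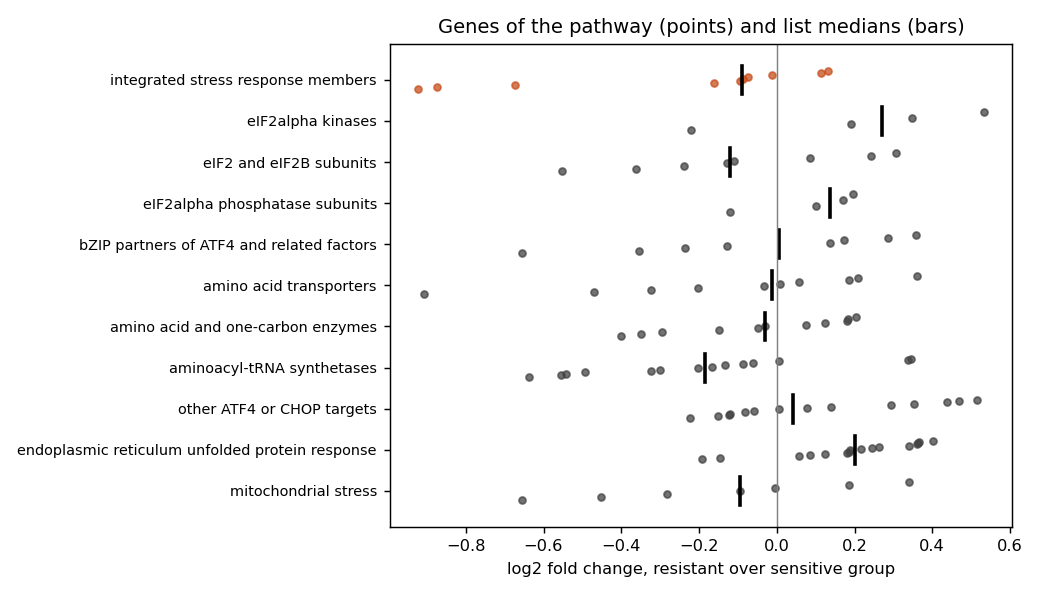
Log2 fold change (resistant over sensitive group) of each gene tested, as a point, for the 10 members in orange and for 10 lists of other pathway genes in grey, with a bar at the median of each list. The medians lie between -0.18 for the aminoacyl-tRNA synthetases and 0.27 for the eIF2alpha kinases, and none of the points passed the test.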

How the data were processed

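RNA-seq of 3 sensitive and 3 resistant LSEC libraries was used, grouped by sample title. The series' design text speaks instead of LX-2 cells (a human stellate line) in conditioned media. It goes against the titles, the source names and the mouse gene table, and was not used for grouping. Per the submitters' processing notes, the authors used HISAT2 2.0.5 and featureCounts 1.5.0-p3, and they deposited raw counts per gene and FPKM (count per gene length and library total). The notes name mm9, but the gene lengths implied by FPKM lay within 1% of the GENCODE M21 exon union for 98.4% of 12703 genes, so GRCm38 coordinates from GENCODE M21 are given. A further table of the authors' own comparison (group means, fold changes and p-values) was not used.

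Counts were tested in R 4.3.3 with edgeR 4.0.16: filterByExpr, TMM, and the quasi-likelihood test with robust moderation, two-sided, with Benjamini-Hochberg adjustment over all genes tested and a threshold of 0.05. Standard errors follow from the F statistic, and 95% intervals use its degrees of freedom. CPM values are per library total, and log2 CPM used TMM and a prior count of 2. The fit was tested on simulated data. Alternatives were DESeq2 1.42.0, limma 3.58.1 (voom, and log2(FPKM + 1)), other scalings and filters, a replicate block and fits with 1 library left out. The members and lists were chosen with earlier results of these data known. All members are named, and from each list at most 3 genes with the largest absolute log2 fold change at an average log2 CPM of at least 3. Also named, after their values were seen, were genes whose groups did not overlap, those called in an alternative, Eif2ak1 and Ppp1r15b. The markers Mcam, Mrc1, Stab1 and S100a9 were named in the same way. The 5 genes most like the members' mean are named by Pearson's r at the same minimum.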

Additional observations from a re-analysis of the deposited data

How the results depend on the processing

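All 10 genes kept an adjusted p-value above 0.05 in each of the 15 alternative fits, the lowest being 0.659. Of 150 fold changes in these fits, 16 changed direction and 134 did not. With library totals alone the log2 fold change was 0.0030 for Sesn2 and 0.077 for Ppp1r15a, with no filter on low counts it was 0.016 and 0.076, and in limma on log2(FPKM + 1) it was 0.023 for Ddit4 and 0.011 for Sesn2. With 1 library left out, it ran from -0.23 to 0.083 for Atf4, -0.34 to 0.34 for Ddit4, -0.405 to 0.13 for Asns, -0.071 to 0.41 for Chac1, -1.39 to 0.32 for Phgdh, -0.20 to 0.092 for Sesn2 and -0.22 to 0.30 for Ppp1r15a. The cause was not tested.

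Over all genes, 0 went under 0.05 after adjustment in edgeR's test, 2 without the count filter and 24 in DESeq2. Without adjustment 476, 2036 and 732 did, and between 167 (without R3) and 1056 (without S3) when a library was left out, with 245 without R2. In those fits with a library left out, 0 to 2 of the 10 genes went under 0.05 without adjustment, and the 2 were Ddit3 and Trib3 without S3. In that fit 6.53% of all 16169 genes did. Nupr1 (bZIP partners and related factors) and Yars (aminoacyl-tRNA synthetases) were also among them. Without S2, 632 of 15965 genes did, among them Slc6a9 (amino acid transporters) and Bbc3 (other ATF4 or CHOP targets). No other gene of the 10 lists did in those fits. The median of the eIF2 and eIF2B subunits ran from -0.20 to 0.0049, the highest without S2.

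The labels do not say whether same-numbered libraries share anything beyond the number. Their deviations from the group means correlated across genes by -0.00093, 0.034 and 0.19 for replicates 1, 2 and 3, and 1 of the 3 numbers matched its own best. Under a replicate block, 0 genes went under 0.05 after adjustment, 467 before it, and 0 of the 10 genes at either level, with log2 fold changes of -0.60 for Ddit3, -0.46 for Trib3 and -0.60 for Phgdh.

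Each of the 10 genes had at least 275 counts in each library, whereas Slc43a1, Cbs and Fgf21 did not pass the filter on low counts.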

Other observations

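Further lists held stress genes outside the amino acid arm. Of 14 other ATF4 or CHOP targets tested, 8 were above 0 and 6 below, with a median log2 fold change of 0.04. Gdf15, a stress-induced cytokine, had 65.6, 119 and 38.2 CPM in S1, S2 and S3 and 70.9, 192 and 76.8 CPM in R1, R2 and R3, and its log2 fold change was 0.52 (95% interval from -0.85 to 1.88), or 1.158 without S2. Bbc3, which encodes the pro-apoptotic protein PUMA, had 23.3, 17.6 and 19.1 CPM in S1, S2 and S3 and 25.7, 27.4 and 31.4 CPM in R1, R2 and R3, without overlap, and its log2 fold change was 0.44 (95% interval from -0.05 to 0.92; edgeR quasi-likelihood adjusted p = 0.940), or 0.42 without S2. Vegfa, which encodes the ligand that bevacizumab binds in its human form, had a log2 fold change of 0.35 (95% interval from -0.34 to 1.04), or 0.15 without S2.

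Of the 7 genes of mitochondrial stress, 2 were above 0 and 5 below, with a median of -0.10, or 0.09 without S2. Dele1, which relays mitochondrial stress to the kinase HRI, had 0.34, and Clpp and Hspe1, a matrix protease subunit and a chaperonin cofactor, had -0.65 and -0.45. Without S2 the values were 0.15, 0.09 and 0.09. For Clpp, S2 stood at 76.9 CPM and the other 5 libraries between 26.6 and 34.2 CPM, and for Hspe1 at 152 CPM against 65.4 to 86.6 CPM.

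The 5 genes whose log2 CPM followed the mean standardised log2 CPM of the 10 genes most closely, of 9633 genes compared over 6 libraries, were Nsun2, Polr2c, Trp53bp2, Slc25a33 and Vars, with Pearson's r from 0.989 to 0.994. These libraries share the departure of S2, and the values are a description only. Vars, the valyl-tRNA synthetase, had 107, 129 and 56.9 CPM in S1, S2 and S3 and 101, 71.4 and 82.5 CPM in R1, R2 and R3.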
